A study of Mus musculus with 5 samples.

Results

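Collagen hydroxylases and chaperones act on newly made collagen chains in the endoplasmic reticulum, the compartment where secreted proteins fold. The group described here comprised 10 genes, P3h1, P3h2, Crtap, P4ha1, P4ha2, P4hb, Plod1, Plod2, Plod3 and Serpinh1, chosen by gene symbol and read by every probe that the platform annotation gives them. These were 11 probes of 24613 on the array, P3h1 having 2 and the others 1 each, and the 10 genes were among 9685 genes tested. The arrays came from F9, a line of mouse embryonal carcinoma cells that turns into extra-embryonic endoderm under retinoic acid. The first group was F9 cells with Sox7 and Sox17, a pair of related endoderm transcription factors, knocked down together (3 arrays), and the second was control F9 cells (2 arrays). All 5 samples carried the retinoic acid treatment label. The sources used here do not give the means of knockdown, what the control cells received, or the dose and time of retinoic acid. They also do not say whether numbered samples were separate cultures, so the p-values cover the spread among these arrays alone, and that spread may be technical.

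Several kinds of hydroxylase modify collagen before its chains leave the cell. Prolyl 4-hydroxylase, a complex of a catalytic alpha subunit and P4hb, makes the 4-hydroxyproline that stabilises the triple helix, while prolyl 3-hydroxylases modify a small number of other prolines and lysyl hydroxylases prepare lysines for sugar attachment and cross-linking. Serpinh1 is a chaperone that binds folded procollagen and accompanies it towards the Golgi. Endoderm of the parietal yolk sac secretes large amounts of basement membrane, whose network-forming collagen is type IV.

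The targeted transcripts were lower on every knockdown array. Sox17 lay between 243 and 309 intensity units in knockdown cells, against 1732 and 1798 in control cells, and Sox7 between 403 and 490.1 in knockdown cells, against 1152 and 1306 in control cells. Markers of endoderm moved with the groups. All 5 extra-embryonic endoderm markers, Sox17 among them, were called lower in knockdown cells, with a summed intensity of 7216 to 7731 in knockdown cells and 28066 to 28074 in control cells. Of 7 parietal endoderm markers, 6 were called lower, with sums of 17435 to 20267 in knockdown cells and 66164 to 67803 in control cells, and 4 of 5 visceral endoderm markers were called lower (Afp was under the noise threshold on all 5 arrays), with sums of 759.7 to 859.5 in knockdown cells and 3287 to 3640.2 in control cells. The 5 embryonal carcinoma markers had 1 call, higher, and sums of 24121 to 26775 in knockdown cells and 18964 to 20934 in control cells. Of 4 endothelial markers 0 were called, with sums of 222 to 249 in knockdown cells and 224 to 276 in control cells, and Kdr and Tek were under the noise threshold on all 5 arrays. Of 4 cartilage and bone markers with a probe 1 was called, higher, with sums of 878 to 1082 in knockdown cells and 485 to 544 in control cells. Of 8 fibroblast markers, 3 were called higher, with sums of 273 to 323 in knockdown cells and 136 to 156 in control cells, and Col1a2, Col3a1, Lum and Postn were under the noise threshold on all 5 arrays. The part of these marker shifts in the results below was not tested. In such bulk samples, fewer cells of a type and less RNA per cell cannot be told apart.

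All 10 genes had lower mean intensity in knockdown cells, and 9 of them passed the test, each as a fall. They lost between 1.43-fold for P3h1 and 6.87-fold for P3h2. Over all genes tested, 17.0% were called, 7.97% lower and 8.99% higher in knockdown cells (limma, Benjamini-Hochberg adjusted p below 0.05). For each of the 10 genes every knockdown array was below every control array, an arrangement found for 24.9% of all genes tested. The median log2 difference of the 10 genes, knockdown minus control, was -0.72, against 0.0047 over all 9685 genes. With only 2 control arrays the count of falls depended on both, and was 4 without control replicate 1 and 4 without control replicate 2. Leaving out knockdown replicates 1, 2 or 3 gave 7, 8 and 7.

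**Figure D1:**
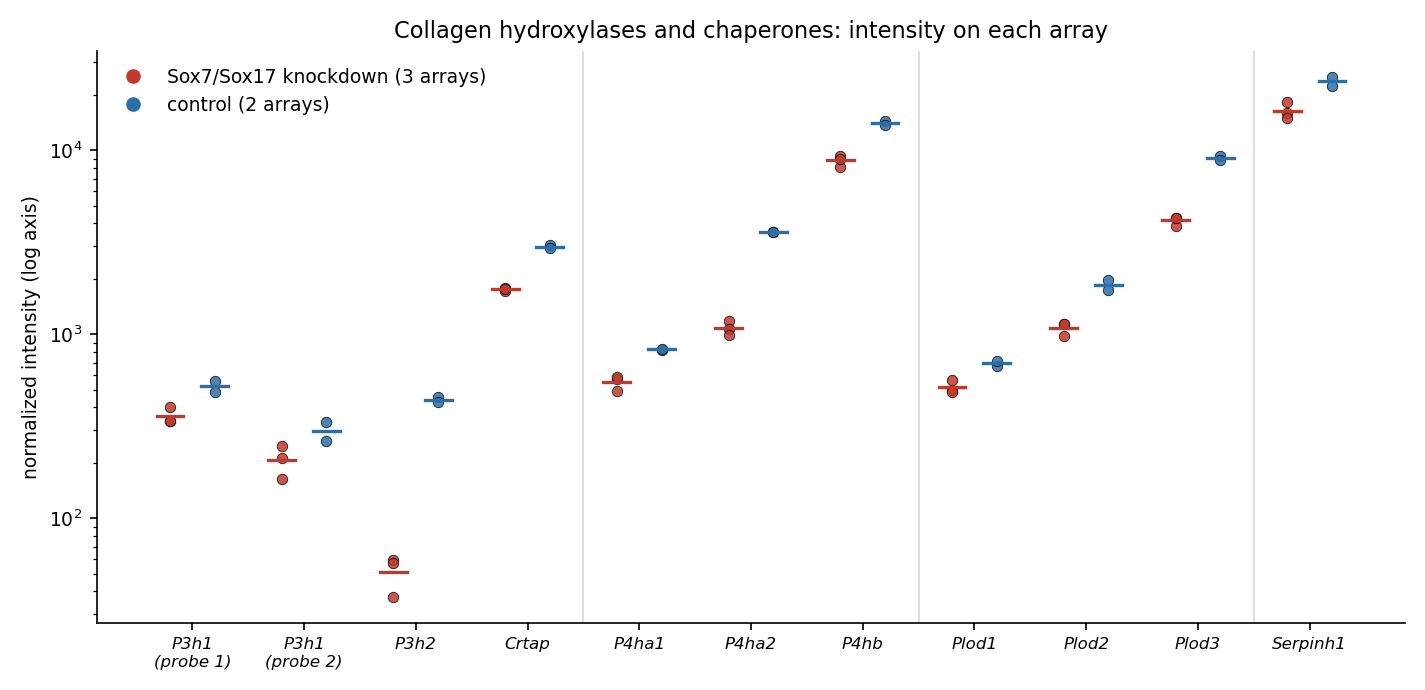
Normalized intensity (log axis) of the 11 probes on each array, with the 3 knockdown arrays in red left of the 2 control arrays in blue, and short bars at the group means. Vertical lines separate prolyl 3-hydroxylation, prolyl 4-hydroxylation, lysyl hydroxylation and the chaperone. The groups do not overlap for any probe, and the gap is widest for P3h2. Heights of different probes cannot be set against each other.

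In the prolyl 3-hydroxylation class the response was very uneven. P3h2 (chromosome 16, 25959284 to 26105813, GRCm38.p6), a prolyl 3-hydroxylase known for acting on type IV collagen, had intensities of 59.2, 57.0 and 37.4 in knockdown cells, against 453 and 428 in control cells. Knockdown replicate 3 was the lowest, and all knockdown arrays remained above the noise threshold of about 20.1 to 20.2 units. P3h2 fell by 2.78 (log2 units, as for every fall and rise given here; SE 0.170, limma adjusted p = 0.00081) and kept 14.6% of the control level, the ninth steepest fall among all genes tested.

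P3h1 (chromosome 4, 119232915 to 119248977), the enzyme that forms a complex with Crtap, had a smaller difference. Its brighter probe (ILMN_2738468) read 336, 401 and 337 in knockdown cells, against 554 and 487 in control cells. This probe fell by 0.52 (SE 0.125, limma adjusted p = 0.041), leaving 69.7% of the control level. The dimmer probe (ILMN_1258906) read 164, 246 and 212 in knockdown cells, against 334 and 262 in control cells. It was not called, with a difference of -0.50 (SE 0.190, limma adjusted p = 0.13). The call of the brighter probe held only without knockdown replicate 2 and was lost on leaving out any other array, with adjusted p of 0.10 to 0.19.

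Crtap (chromosome 9, 114375131 to 114390712), the non-catalytic partner of P3h1, read 1722, 1778 and 1770.1 in knockdown cells, against 3045 and 2924 in control cells. The 3 knockdown arrays lay within a narrow band, and Crtap fell by 0.76 (SE 0.0918, limma adjusted p = 0.0054). Crtap was called whichever array was left out. P3h3, a further prolyl 3-hydroxylase, had 232 ± 23.8 units in knockdown cells (SD, n = 3) and 236 ± 3.72 in control cells (SD, n = 2), a log2 difference of -0.02 with a 95% interval of -0.30 to 0.25. P3h4, a non-catalytic relative of Crtap, differed by -0.08, with an interval of -0.36 to 0.21.

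The prolyl 4-hydroxylation class also held 1 gene with a much larger fall than its relatives. P4ha2 (chromosome 11, 54100924 to 54131668), an alternative catalytic subunit, read 1178, 1066 and 985 in knockdown cells, against 3578 and 3588 in control cells. The groups were far apart relative to the spread within each, and P4ha2 fell by 1.72 (SE 0.112, limma adjusted p = 0.00093), a 3.30-fold loss. P4ha1 (chromosome 10, 59323197 to 59373304), the widely expressed catalytic subunit, read 574, 582 and 494 in knockdown cells, against 825 and 836 in control cells. It fell by 0.58 (SE 0.112, limma adjusted p = 0.021), and missed the threshold when control array 1 (adjusted p = 0.098), control array 2 (0.12) or knockdown array 3 (0.052) was left out.

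P4hb (chromosome 11, 120560298 to 120573253), which is both the beta subunit of prolyl 4-hydroxylase and protein disulfide isomerase, read 9307, 8140.1 and 8942 in knockdown cells, against 14453 and 13689.9 in control cells. P4hb fell by 0.68 (SE 0.105, limma adjusted p = 0.011), to 62.5% of the control level. With only 1 of the control arrays it missed the threshold, at adjusted p of 0.073 without the first and 0.065 without the second.

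All lysyl hydroxylases were lower in knockdown cells, and 2 of 3 were called. Plod3 (chromosome 5, 136987019 to 136996646), which also transfers glucose onto collagen, read 4308, 3893 and 4267 in knockdown cells, against 9307 and 8859.6 in control cells. It fell by 1.13 (SE 0.101, limma adjusted p = 0.0021), leaving 45.8% of the control level, and its call held with each array left out. Plod2 (chromosome 9, 92539636 to 92608428), which hydroxylates lysines in the telopeptides of fibrillar collagens, read 1134, 977 and 1133 in knockdown cells, against 1977 and 1739 in control cells. It fell by 0.77 (SE 0.120, limma adjusted p = 0.011), and missed the threshold with either control array removed (adjusted p = 0.073 without the first, 0.051 without the second).

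Plod1 (chromosome 4, 147909753 to 147936776), which acts on lysines of the collagen helix, was the only gene of the 10 that missed the threshold. It read 495, 566 and 488 in knockdown cells, against 672 and 718 in control cells, so its groups did not overlap either. The log2 difference was -0.42, with a 95% interval of -0.69 to -0.15 and a limma adjusted p of 0.053.

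Serpinh1 (chromosome 7, 99345375 to 99353239), the collagen-specific chaperone, read 15883, 14971 and 18288 in knockdown cells, against 25074 and 22473 in control cells. It fell by 0.54 (SE 0.125, limma adjusted p = 0.037), to 68.8% of the control level. The call was lost on leaving out any array other than knockdown replicate 3, with adjusted p from 0.091 to 0.17.

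**Figure D2:**
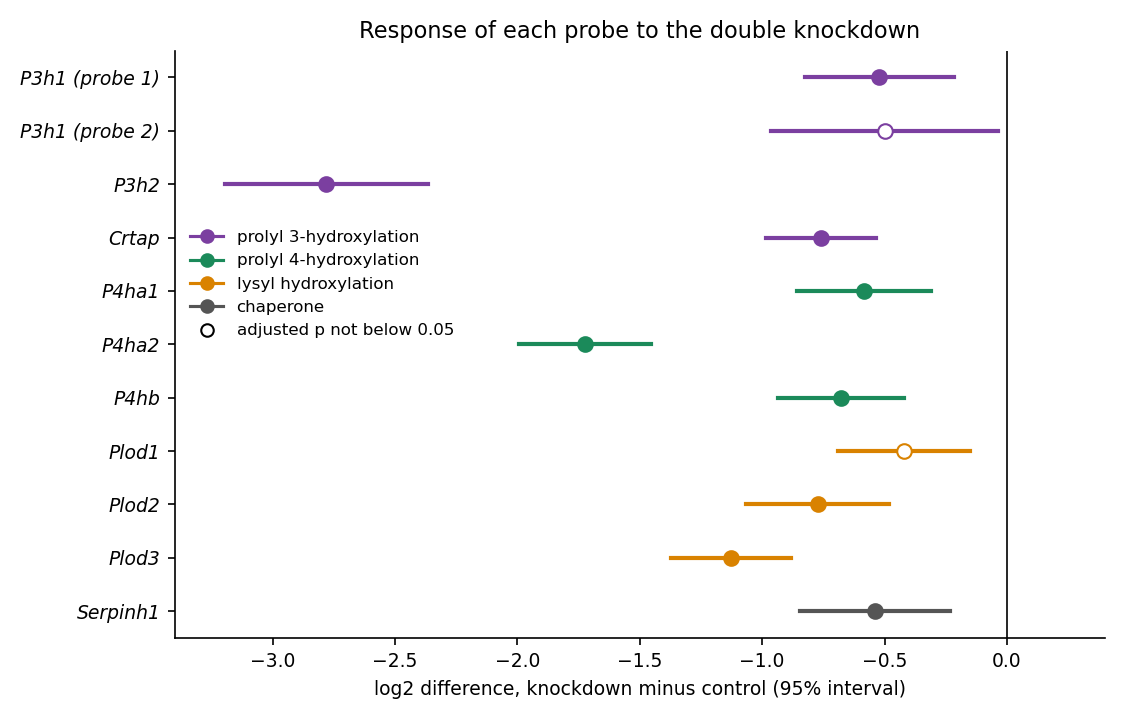
Log2 difference, knockdown minus control, of each probe (points) with its 95% interval from the limma fit (bars), grouped and coloured by class. Filled points passed an adjusted p below 0.05, and open points, the dimmer P3h1 probe (probe 2) and Plod1, did not. P3h2, P4ha2 and Plod3 lie furthest left in their classes.

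The classes had medians close to each other, and the prolyl 3- and prolyl 4-hydroxylation classes each held 1 gene well below the others. The lysyl hydroxylases were evenly spaced. The mean log2 ratio to Plod2 differed between knockdown and control cells by -0.35 for Plod3 and by 0.35 for Plod1. The median log2 difference was -0.76 for prolyl 3-hydroxylation, -0.68 for prolyl 4-hydroxylation and -0.77 for lysyl hydroxylation, with 3 of 3, 3 of 3 and 2 of 3 genes called lower. The range was -2.78 to -0.52 in the first class, -1.72 to -0.58 in the second and -1.13 to -0.42 in the third. Each median of 3 genes was the value of 1 gene, Crtap, P4hb and Plod2 in turn. Crtap and P4hb are partners of catalytic subunits, while the ends of the first 2 ranges were catalytic genes. No score over a class was tested.

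Whether relatives responded unequally was read from their log2 ratio on each array, set to 0 at the control mean, for 9 pairs within the classes. The ratio of P3h2 to P3h1 was -2.00, -2.29 and -2.50 on the knockdown arrays, against -0.05 and 0.05 on the control arrays, and that of P3h2 to Crtap was -1.81, -1.90 and -2.35, against -0.01 and 0.01. The ratio of P4ha2 to P4ha1 was -1.07, -1.23 and -1.11 in knockdown cells, against 0.01 and -0.01 in control cells. P4ha2 relative to P4hb gave -1.0, -0.95 and -1.19 in knockdown cells, against -0.04 and 0.04 in control cells. P3h2 and P4ha2 thus lost more than each partner on all 3 knockdown arrays.

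Plod3 relative to Plod1 was at -0.60, -0.93 and -0.59 in knockdown cells, against 0.08 and -0.08 in control cells, and relative to Plod2 it was at -0.37, -0.30 and -0.38, against -0.06 and 0.06. P3h1 relative to Crtap was at 0.18, 0.38 and 0.15 in knockdown cells, against 0.06 and -0.06 in control cells. Plod1 relative to Plod2 was at 0.23, 0.63 and 0.21, against -0.14 and 0.14. The ratio of P4ha1 to P4hb, the catalytic and beta subunits, was 0.07, 0.29 and -0.08 in knockdown cells, against -0.05 and 0.05 in control cells, so the groups overlapped. A two-sided exact permutation test over the 10 splits of 5 arrays cannot go below p = 0.1, so none of the pairs could pass 0.05. That smallest permutation p was reached by 7 pairs (0.13 adjusted over the 9 pairs). The exact permutation p was 0.2 for Plod1 against Plod2 (adjusted 0.23) and 0.7 for P4ha1 against P4hb (adjusted 0.7).

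**Figure D3:**
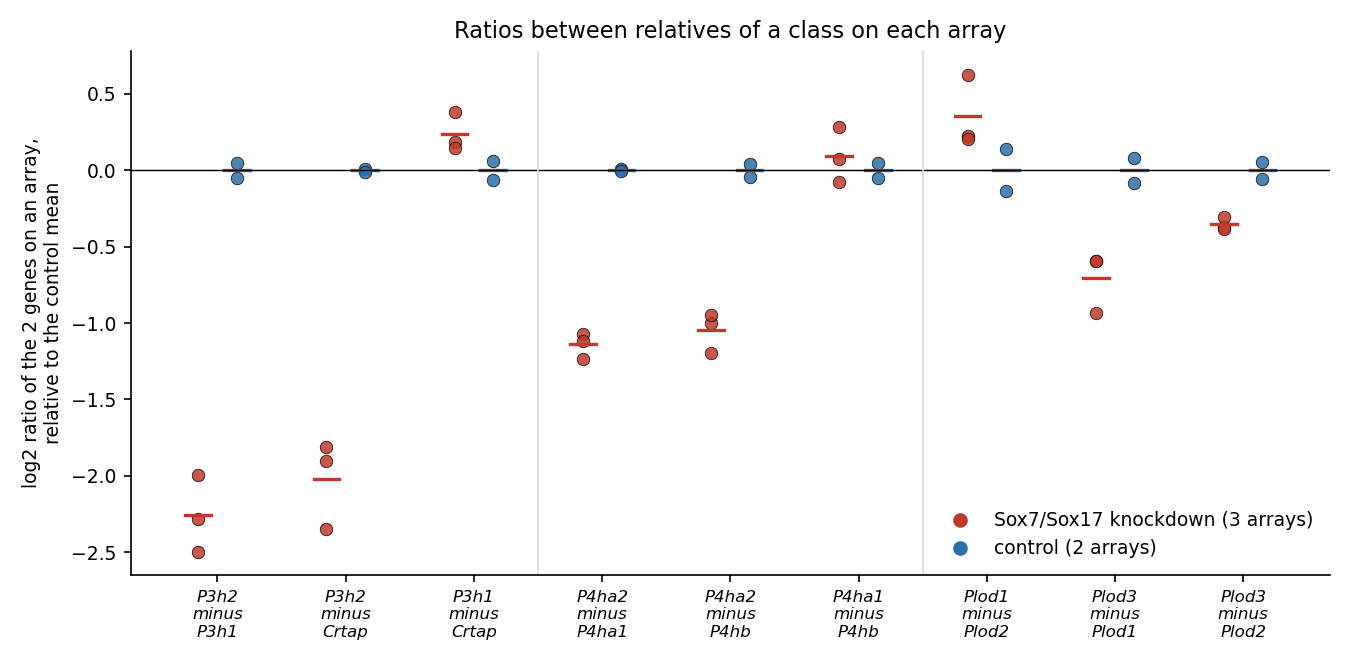
Log2 ratio of each pair of relatives on an array, relative to the mean of the control arrays (vertical axis), for 9 pairs. Red points are the 3 knockdown arrays, blue points to their right the 2 control arrays, and short bars the group means. Ratios with P3h2 or P4ha2 on top lie at about -0.95 or lower on every knockdown array.

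Upstream sequences are shown for P4ha2 and its partner P4hb and for Plod3 and Plod1, pairs within a class with unlike differences. RefSeq (GRCm38.p6) start sites were matched for 8 of the 10 genes, with 9 windows in all, and P3h2 and Plod2 have no entry in the table used. Each window is the 250 bases before a start site, for P4ha2 chr11:54100674-54100923 (+ strand), for P4hb chr11:120573254-120573503 (- strand), for Plod3 chr5:136986769-136987018 (+ strand) and for Plod1 chr4:147936777-147937026 (- strand). Capitals mark matches to the letters searched on both strands, which were ACAAT, the core bound by SOX proteins, ACGTG, a core of hypoxia response elements, and CCAAT, the box bound by NF-Y.
P4ha2: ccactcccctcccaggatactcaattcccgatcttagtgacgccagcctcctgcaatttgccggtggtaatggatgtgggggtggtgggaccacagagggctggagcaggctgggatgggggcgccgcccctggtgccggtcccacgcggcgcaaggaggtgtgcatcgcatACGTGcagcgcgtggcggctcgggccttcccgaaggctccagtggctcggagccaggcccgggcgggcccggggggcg
P4hb: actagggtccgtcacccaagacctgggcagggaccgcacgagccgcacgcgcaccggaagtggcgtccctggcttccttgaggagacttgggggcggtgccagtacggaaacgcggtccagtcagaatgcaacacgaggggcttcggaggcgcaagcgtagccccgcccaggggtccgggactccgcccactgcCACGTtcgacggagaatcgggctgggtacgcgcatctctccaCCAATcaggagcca
Plod3: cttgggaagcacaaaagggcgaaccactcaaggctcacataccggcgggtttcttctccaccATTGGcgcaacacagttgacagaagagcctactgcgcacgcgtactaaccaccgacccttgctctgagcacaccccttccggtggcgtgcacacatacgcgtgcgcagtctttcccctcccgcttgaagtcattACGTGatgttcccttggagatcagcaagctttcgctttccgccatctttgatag
Plod1: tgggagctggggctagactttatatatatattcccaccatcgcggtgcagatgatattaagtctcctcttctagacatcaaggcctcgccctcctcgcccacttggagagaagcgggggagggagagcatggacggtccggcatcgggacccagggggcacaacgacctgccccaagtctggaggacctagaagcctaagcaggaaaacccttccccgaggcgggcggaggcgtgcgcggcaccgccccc

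ACAAT was found in 0 of the 9 windows, while 27.7% of all 32851 RefSeq windows of the same length held it. ACGTG was found in 6 of the 9 windows, those of P4ha1, P4ha2, P4hb, Plod3 and Serpinh1 and 1 of the 2 of P3h1, against 16.6% of all windows. It stood 78 bases before the start in P4ha2, 56 in P4hb and 54 in Plod3, and was not in the Plod1 window. The P4ha1 window ran into the annotated gene, with its match inside the gene. The P3h1 window that held ACGTG lay wholly within the annotated gene. CCAAT was found in 4 of the 9 windows, both of P3h1 and those of P4hb and Plod3, against 33.8% of all windows. These searches describe only the letters of each window. The bases G and C made up 53.6% to 70.0% of the 9 windows, and the shares over all windows were not matched for this.

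Other genes that modify, fold and export collagen in the endoplasmic reticulum gave fewer calls. Of 13 tested genes on this list, 4 fell and 0 rose in limma's test (6 lower and 0 higher at an unadjusted p below 0.05), with a median of -0.23. Over all genes tested 7.97% were called lower and 8.99% higher, so 0 rises of 13 is near the share over all genes. Sparc, a collagen-binding matrix protein that is also a parietal endoderm marker, fell by 1.81 (SE 0.117, limma adjusted p = 0.00093), with 112 ± 11.5 units in knockdown cells (SD, n = 3) and 434 ± 23.5 in control cells (SD, n = 2). Kdelr3, a receptor that returns resident proteins to the endoplasmic reticulum, fell by 0.59 and by 0.56 at its other probe. The collagen galactosyltransferase gene Colgalt1 fell by 0.58, and Sec24d, a coat protein of export vesicles, fell by 0.56 (limma adjusted p = 0.030 and 0.043). Sparc was the 1 gene still called on leaving out either control array or knockdown array 3. Ppib, the cyclophilin that binds P3h1 and Crtap and was named after its value was seen, differed by -0.17 (adjusted p = 0.25).

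General chaperones and oxidoreductases of the same compartment gave 4 falls and 0 rises among 18 tested genes in limma's test (7 lower and 0 higher at an unadjusted p below 0.05), with a median of -0.19. The shares over all genes tested were 7.97% lower and 8.99% higher, so 0 rises of 18 is near the latter. Pdia5, a protein disulfide isomerase, fell by 0.97 (SE 0.104, limma adjusted p = 0.0037) and by 0.92 at its other probe. The prolyl isomerase genes Fkbp11 and Fkbp9 fell by 0.80 and 0.62, and Erp29 fell by 0.40 (limma adjusted p = 0.0068, 0.016 and 0.041). The central chaperone gene Hspa5, named after its value was seen, had 1117 ± 177 units in knockdown cells (SD, n = 3) and 1169.8 ± 89.8 in control cells (SD, n = 2), a difference of -0.08 (adjusted p = 0.77). Without control replicate 2 there was 1 fall, and without knockdown replicate 2 there were 2.

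Protein hydroxylases of the same 2-oxoglutarate-dependent type that act on other substrates gave 0 falls among 10 tested genes in limma's test. At limma's unadjusted p below 0.05, 0 were lower and 3 higher, and the median was -0.02. Over all genes tested 7.97% were called lower, so 0 of 10 is near the overall share. A dimmer probe of Asph, under the noise threshold in knockdown cells, was called at least 1.31-fold lower, but its brightest probe was not called. Egln1, named after its values were seen, had a dimmer probe called higher by 0.59 (limma adjusted p = 0.028). Its brightest probe differed by 0.49 and a further probe by 0.61, neither of them called. Egln3, an oxygen-sensing hydroxylase of hypoxia-inducible factor and itself a hypoxia-induced gene, rose by 1.19 (SE 0.176, limma adjusted p = 0.0097). Without the first or the second control array it missed the threshold (adjusted p = 0.058 and 0.071).

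Genes induced by hypoxia, a list included because P4ha1, P4ha2 and Plod2 are known targets of hypoxia-inducible factor, gave 5 rises and 1 fall among 13 tested. At limma's unadjusted p below 0.05, 6 were higher and 1 lower. With 8.99% of all genes tested called higher and 7.97% lower, 1 fall of 13 is near the share over all genes. Adm, a vasoactive peptide gene, rose by 1.5 (SE 0.205, limma adjusted p = 0.0080). The stress-response gene Ddit4 and the kinase gene Pdk1 rose by 0.74 and 0.73, and Slc2a1 and Ankrd37, named after their values were seen, rose by 0.49 and 0.56. Ndrg1 fell by 0.86 at its brighter probe (limma adjusted p = 0.011), while its other probe had a difference of -0.73 that missed the threshold. On leaving out control array 1 the list gave 2 rises and 0 falls, on leaving out control array 2 it gave 1 and 0, and on leaving out knockdown arrays 1 or 3 it gave 3 and 1.

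The substrates of these enzymes, the collagen chains, changed in both directions. Of 37 chains with a probe, 21 were tested, of which 3 fell and 5 rose, with a median of 0.03. These were 14.3% and 23.8% of the tested chains, against 7.97% and 8.99% of all genes tested. At limma's unadjusted p below 0.05, 4 were lower and 6 higher. The type IV chains Col4a1 and Col4a2, the main collagen of parietal endoderm, fell by 2.18 (SE 0.144) and fell by 1.81 (SE 0.10), with limma adjusted p of 0.00095 and 0.00081. Col4a2 had 9719 ± 557 units in knockdown cells (SD, n = 3) and 33985 ± 514 in control cells (SD, n = 2). Col18a1, a basement membrane collagen of another type, rose by 1.28 (SE 0.104), and its much dimmer probe, under the noise threshold on both control arrays, was at least 1.22-fold higher. Col8a2 was likewise under the threshold in control cells and at least 1.53-fold higher in knockdown cells. Named after their values were seen, Col26a1, Col9a3 and Col9a2 rose by 1.16, 0.85 and 0.59, and Col27a1, under the threshold in knockdown cells, was at least 1.02-fold lower. Also named after its values were seen, Col6a1 had a dimmer probe called higher by 0.59 (limma adjusted p = 0.023). Its brightest probe differed by 0.38 and was not called (limma adjusted p = 0.13). Averaging the probes of each gene gave 6 rises. Without control replicate 2 there were 2 rises and 2 falls, and without knockdown replicates 2 or 3 there were 3 rises.

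Enzymes that act on collagen after secretion gave 0 falls and 3 rises among 6 tested genes in limma's test. At limma's unadjusted p below 0.05 the counts were also 0 lower and 3 higher. Over all genes tested, 7.97% were called lower and 8.99% higher, so 0 falls among 6 genes is near the overall share. Loxl1, a lysyl oxidase relative that cross-links matrix proteins, rose by 1.70 (SE 0.102, limma adjusted p = 0.00081), with 953 ± 53.2 units in knockdown cells (SD, n = 3) and 281 ± 15.3 in control cells (SD, n = 2). Pcolce, an enhancer of procollagen cleavage, rose by 1.31 (SE 0.140, limma adjusted p = 0.0037). Lox, the founding lysyl oxidase, was above the noise threshold on 2 of 3 knockdown arrays and on neither control array, and at least 1.06-fold higher in knockdown cells. These 3 rises were called whichever array was left out.

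**Figure D4:**
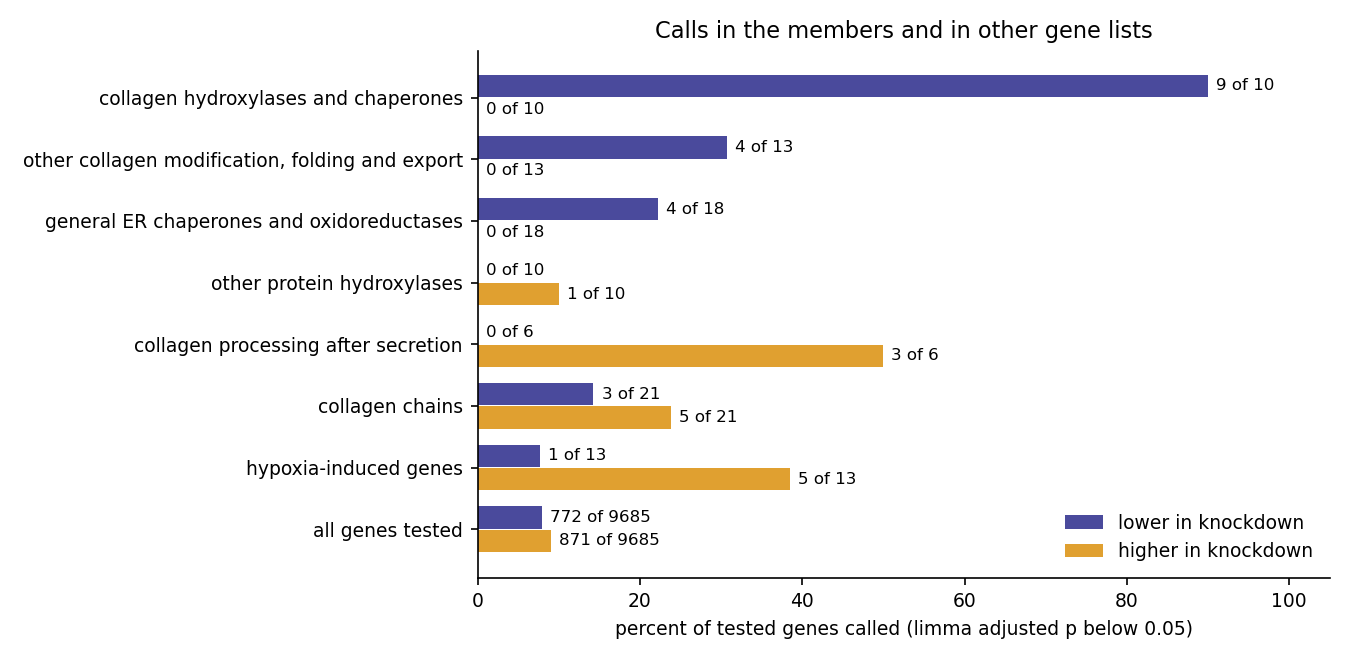
Percent of tested genes called lower (dark) or higher (yellow) in knockdown cells, for the collagen hydroxylases and chaperones, for 6 other gene lists and for all 9685 genes tested, with counts beside the bars. The collagen hydroxylases and chaperones reach 9 of 10 lower, and the lists of post-secretory processing and of other protein hydroxylases have 0 lower. Over all genes tested 7.97% were lower, so 0 is near that share for lists of 6 and 10 genes.

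The genes closest to P3h2, P4ha2 and Plod3 across the 5 arrays were named by the Euclidean distance between log2 values centred on each gene's mean, out of 9684 other genes. For P3h2 these were Hs3st1, a heparan sulfate sulfotransferase, Kcnk13, a potassium channel, and Pga5, a pepsinogen, at distances of 0.15, 0.16 and 0.16. For P4ha2 they were Ap1m2, a clathrin adaptor subunit, Col4a2 and Pip5k1b, a phosphoinositide kinase, at 0.11, 0.12 and 0.14. For Plod3 they were Eva1a, Zbtb10 and Akr1c12, at 0.10, 0.11 and 0.11. The group differences of these neighbours ran from -2.81 to -2.69 for P3h2, -1.81 to -1.66 for P4ha2 and -1.20 to -1.15 for Plod3. Since the distance includes the gap between the groups, these differences had to lie near that of the gene they were matched to.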

How the data were processed

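The deposited normalized intensities, 1 per probe and array, were used for 24613 probes. Per the labels, Trizol-extracted total RNA was made into biotinylated cRNA for Illumina arrays. Before deposit the authors' values had been background-subtracted (29.1% to 29.2% of each array lay below 0) and brought to 1 common distribution (sorted arrays differed by at most 0.394), by software the sources used here do not name. This step removes overall RNA differences. A table of non-normalized signals was not used, since the headings of its 10 per-sample columns match no label.

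Values below 0 were set to 0, 16 was added and log2 taken, so changes of dim probes are understated. The noise threshold of an array was the 90% quantile of the sizes of its negative values. Probes above it on at least 2 of 5 arrays were tested (13624), with limma 3.58.1 in R 4.3.3 (lmFit, eBayes), over all 5 arrays with no covariate and Benjamini-Hochberg adjustment over tested probes. A probe under the threshold on all arrays of a group gave only a bound ("at least"), set against the higher of threshold and own signal. For each gene the brightest tested probe, by its mean over all arrays, was taken. Names came from the platform annotation and gene positions from RefSeq (GRCm38.p6). Signal shared between paralogs was not examined. The number of arrays limits the precision. In simulated data of 13624 probes, 50 were changed at each fold. There 18% of 1.5-fold, 56% of 2-fold and 96% of 4-fold changes were recovered, and 9 unchanged probes were called. Far fewer probes were changed in the simulation than were called in these data, so its shares need not hold for this comparison.

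All probes of the 10 genes are reported. Of each list, the 4 called genes of largest difference and the relatives P3h3 and P3h4 are named. The members and lists were chosen with earlier results of these data known.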

Additional observations from a re-analysis of the deposited data

How the results depend on the processing

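The direction of all 10 genes was the same in every alternative fit. Median centring and scaling on summed intensity left the 9 falls as they were, and the median of all probes moved by less than 0.01 under any setting. Averaging a gene's probes also gave 9, though Plod1 entered and P3h1 left. The count was 10 with an offset of 64, a trended robust prior or only probes above noise on all arrays, 7 with an offset of 4, 6 with a replicate block, and 5 with no filter on dim probes, where 24613 probes were tested. P3h2, P4ha2 and Plod3 were called in all of these, with log2 differences from -3.03 to -2.14, -1.74 to -1.66 and -1.15 to -1.12. Leaving out single arrays gave 4 to 8 falls.

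Counts over all genes were 1643 (772 lower, 871 higher). They were 770 (403 and 367) without the filter, 828 (412 and 416) with the replicate block, 2627 (1263 and 1364) with the trended prior and 443 to 1107 (220 to 571 and 223 to 536) with an array left out, and 1167 were lower with an offset of 64. Without the filter, the other collagen folding genes gave 1 fall, collagen chains 2 rises, hypoxia genes 0 falls and other hydroxylases 0 rises. With the replicate block these lists gave 1 fall, 3 rises, 3 rises (hypoxia) and 2 rises (other hydroxylases), and general chaperones 2 falls. Other hydroxylases also gave 2 rises with averaged probes, an offset of 64 or the trended prior. With an array left out, the ranges were 1 to 3 falls for collagen folding, 2 to 4 rises for chains, 0 to 2 rises for other hydroxylases, 1 to 3 falls for general chaperones, and 0 to 1 falls and 1 to 4 rises for hypoxia genes. The ratio of P4ha1 to P4hb changed sign, at -0.0019, without knockdown replicate 2, and ran up to 0.18 without knockdown replicate 3, alternatives chosen after seeing the data. The cause of these shifts was not tested.

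The samples were treated as unpaired. Deviations from group means correlated at 0.0072 and 0.073 between same-numbered arrays, and only 2 numbers are shared. The deviations of the 2 control arrays mirror each other, so these values cannot decide whether same-numbered arrays were prepared together.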
